A study of Danio rerio with 10 samples.

Results

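The values described here belong to 105 consecutive gene IDs of the zebrafish transcriptome annotation, LL0000007322 to LL0000007426, out of 36351 IDs counted in each library. They were selected on measured values, as the 52 IDs on either side of LL0000007374, because levels in this stretch were higher in homozygous *ebf3a* mutants than in their siblings at 2 days post-fertilization (dpf). That contrast chose the neighbourhood, so its values are given as a description and not as a test. The comparisons that did not choose it were tested: heterozygous against WT embryos at 2 dpf, homozygous against WT larvae at 5 dpf, and WT larvae at 5 dpf against WT embryos at 2 dpf. The 2 dpf heterozygous and WT libraries were, however, the reference of the contrast that chose the neighbourhood.

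*ebf3a* encodes a transcription factor of the early B cell factor family. These factors bind DNA as dimers and are best known in the nervous system for driving newly born neurons to differentiate. The mutant allele was made with CRISPR/Cas9 and shifts the reading frame to a premature stop codon. Homozygous mutants (hom) carry the allele on both chromosomes, heterozygotes (het) carry it on one, and WT siblings lack it.

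Poly-A RNA was sequenced from pools, and 10 libraries were counted. At 2 dpf there were 2 hom, 2 het and 2 WT libraries, each from the upper body with eyes of 15 to 20 pooled embryos. At 5 dpf there were 2 hom and 2 WT libraries, each from the head with eyes of 10 to 12 pooled larvae, and no het library. The titles give 5 dpf as the later age where the extraction protocol gives 6 dpf. Genotypes were read from the posterior part of the same animals. A replicate is a pool, so p-values speak only of the spread between pools. The tests below take that spread over all groups of a fit and draw it toward the spread of other IDs. It is therefore not the spread of the 2 groups compared alone. In bulk RNA fewer cells of a type and less RNA per cell cannot be told apart. The libraries held 30070283 to 47797511 counts. None of the 105 IDs was found in the reference name tables used here, so the members have no gene names or functions below, the *ebf3a* level and the tissue markers could not be checked, and whether neighbouring ID numbers are neighbouring genes is not stated in the sources used here.

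Levels are CPM, each count divided by the library sum and multiplied by 1000000. CPM is not corrected for transcript length and compares one ID across libraries, not one ID with another. An ID was called raised where both hom libraries were above all 4 sibling libraries (2 het and 2 WT), the hom mean was at least 1.5 times the sibling mean, and the mean over the 6 libraries of 2 dpf was at least 1 CPM. At 2 dpf, 81 of the 105 members had a mean of at least 1 CPM and 34 of them were raised, where 1.18% of the 17985 IDs at or above 1 CPM in the whole table were raised. The ratio of hom to sibling means in these 34 ran between 1.57 and 2.99 with a median of 1.78. The other 47 members at or above 1 CPM had a median ratio of 0.998, and both hom libraries were above all siblings in 3 of them, where 9.7% of all IDs at this level showed that order.

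All 34 raised IDs lay between LL0000007356 and LL0000007408, a block of 53 IDs. The 34 IDs before it and the 18 after it held 0 raised IDs. The 19 block IDs that were not raised included 13 with a mean under 1 CPM at 2 dpf. Splitting the block wherever more than 2 IDs in a row were not raised gave 3 runs and LL0000007374, which stood alone between the first 2 of them. The first run, LL0000007356 to LL0000007369, held 11 raised IDs of 14. The second run, LL0000007378 to LL0000007396, held 18 of 19, and the third run, LL0000007401 to LL0000007408, held 4 of 8. The block kept its 53 IDs without any one of the 6 libraries, but a ratio of at least 2 shortened it to the 7 IDs from LL0000007374 to LL0000007380.

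**Figure D1:**
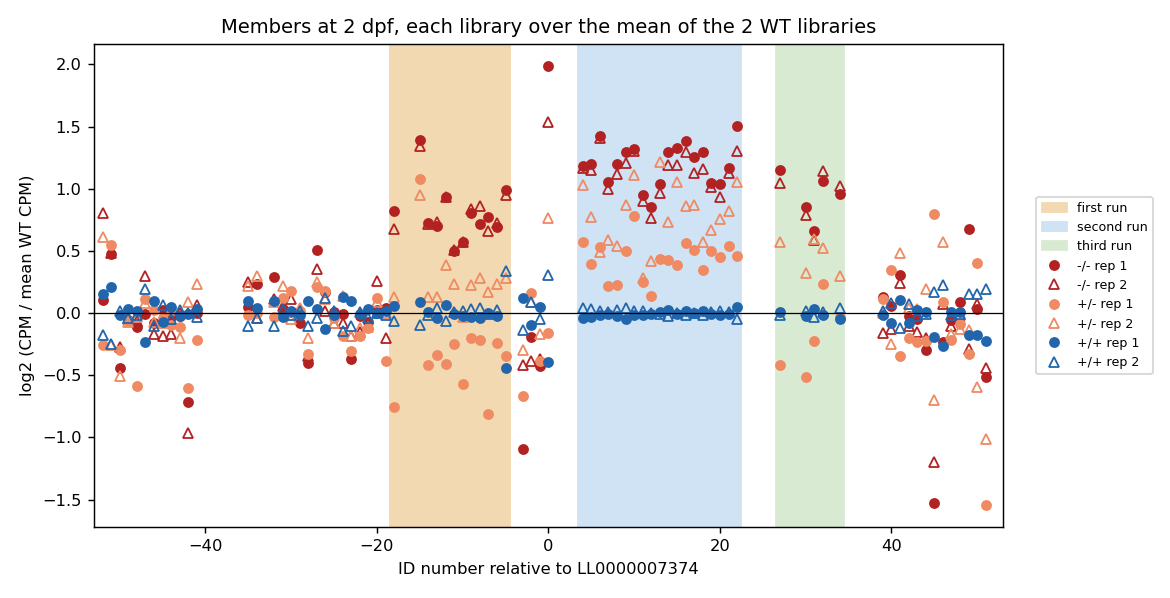
Each member with a mean of at least 1 CPM at 2 dpf, placed by its ID number relative to LL0000007374, with the log2 ratio of each library to the mean of the 2 WT libraries (hom red, het orange, WT blue; circles replicate 1, triangles replicate 2; shading marks the 3 runs). Hom points stand above the other libraries in the 34 raised IDs, and in the second run both het points lie between hom and WT, except in LL0000007387, where het replicate 2 exceeds hom.

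LL0000007356, the first ID of the block, had 14.0 and 12.7 CPM in hom embryos, against 4.70 and 8.66 in het and 8.27 and 7.59 CPM in WT embryos. The ID before it, LL0000007355, had 8.35 and 7.06 CPM in hom embryos, against 6.23 and 8.11 in het and 8.20 and 8.03 CPM in WT embryos, and LL0000007354 had 39.2 and 46.3 in hom, against 42.1 and 41.1 in het and 38.6 and 38.6 CPM in WT embryos. Hom and sibling libraries were thus apart at LL0000007356 and overlapped at both IDs before it. At the other end LL0000007408 had 710 and 742 CPM in hom embryos, against 358 and 449 in het and 355 and 377 CPM in WT embryos. The next 2 IDs were at or near 0 at 2 dpf and cannot show where the higher level ended. LL0000007409 had 1 count in het replicate 2 and 0 in the other 5 libraries, and LL0000007410 had 0 counts in all 6, where 3 counts would correspond to 0.0628 to 0.0998 CPM. The first ID after the block with a mean of at least 1 CPM, picked after its values were seen, was LL0000007413, at 7.35 and 6.01 CPM in hom embryos, against 7.27 and 6.73 in het and 6.65 and 6.78 CPM in WT embryos, where the genotypes overlapped.

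Around the ratio of 1.5, the 3 raised IDs with the lowest ratios were LL0000007394 at 1.57, LL0000007386 at 1.58 and LL0000007368 at 1.63. The nearest IDs that were not raised were LL0000007387, LL0000007363 and LL0000007405, each at 1.41, and LL0000007423 at 1.30. LL0000007363 failed only on the ratio, since its lower hom library had 396 CPM against 329 in the highest sibling. In LL0000007387 the lower hom library had 270 CPM, under the 321 of the highest sibling.

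The summed CPM of the 105 members was 17172 and 16915 in hom embryos, against 9721 and 12772 in het and 9967 and 10110.1 in WT embryos, so the hom mean was 1.60 times the sibling mean. The difference lay inside the block, which follows largely from the rule, since these same libraries drew the block. Outside it, the 52 IDs summed to 1801 and 1732 CPM in hom embryos, against 1639.9 and 1722 in het and 1794 and 1744 CPM in WT embryos, a ratio of 1.02. The block took 1.54% and 1.52% of all counts in the hom libraries, against 0.808% to 1.105% in the 4 sibling libraries.

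LL0000007374, the centre, had the highest ratio of the members at or above 1 CPM, 2.99, but was a low-count ID at 2 dpf. Its counts were 123 and 94 in hom embryos, against 32 and 57 in het and 34 and 61 in WT embryos. These were 4.09 and 2.99 CPM in hom, against 0.923 and 1.75 in het and 0.786 and 1.28 CPM in WT embryos. Hom libraries did not overlap those of the siblings, while het and WT libraries overlapped each other. The next highest ratios belonged to LL0000007380 in the second run, at 2.20, and LL0000007401 in the third, at 2.03. LL0000007380 had 24.3 and 24.1 CPM in hom embryos, against 13.1 and 12.8 in het and 8.99 and 9.18 CPM in WT embryos. LL0000007401 had 2.39 and 2.23 CPM in hom embryos, against 0.808 and 1.60 in het and 1.09 and 1.07 CPM in WT embryos. The first of these had its het libraries between hom and WT, and in the second the het libraries lay on both sides of WT.

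The lowest ratios belonged to members with few counts. LL0000007419, after the block, had 0.432 and 0.541 CPM in hom embryos, against 2.16 and 0.768 in het and 1.09 and 1.40 CPM in WT embryos, a ratio of 0.359. LL0000007332, before the block, had 2.16 and 1.81 CPM in hom embryos, against 2.34 and 3.78 in het and 3.53 and 3.56 CPM in WT embryos, a ratio of 0.602. LL0000007371, between the first and second runs, had 0.798 and 1.27 CPM in hom embryos, against 1.07 and 1.38 in het and 1.85 and 1.55 CPM in WT embryos, a ratio of 0.709. Hom libraries were below all siblings in the first 2 of these IDs and overlapped het in the third. These IDs were chosen for their low ratios, and 11.2% of all IDs at or above 1 CPM had hom below all siblings.

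The 3 runs had in common that hom was highest, which the rule favoured, and differed in where the het pools stood. In the first run the summed CPM was 7899.9 and 7993 in hom embryos, against 3746 and 5479 in het and 4771 and 4899 CPM in WT embryos, so the het libraries lay on both sides of the WT pair. In the second run it was 6196 and 5865 in hom embryos, against 3669 and 4722 in het and 2755 and 2792 CPM in WT embryos, so no genotype overlapped another. In the third run it was 1249.9 and 1302 in hom embryos, against 641 and 823 in het and 621 and 649 CPM in WT embryos, where het replicate 1 fell within the WT pair.

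**Figure D2:**
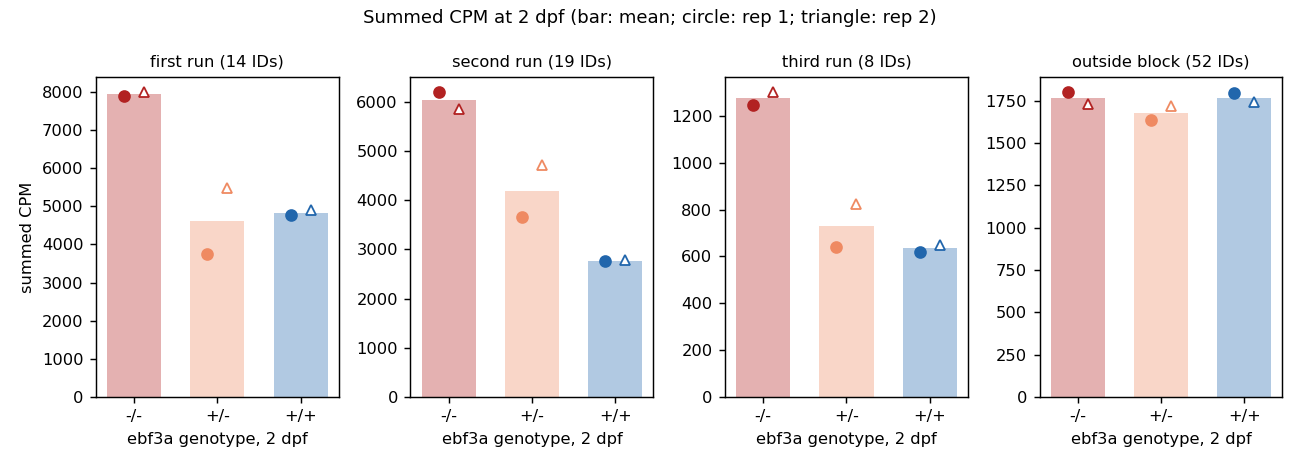
Summed CPM at 2 dpf in the 3 runs and in the 52 IDs outside the block, by genotype (-/- hom, +/- het, +/+ WT), with a bar for the mean of the 2 libraries, circles for replicate 1 and triangles for replicate 2, each panel on its own axis starting at 0. Het pools stand between hom and WT in the second run and straddle or touch the WT pair in the other two.

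Of the 10 members with the highest mean CPM over all libraries, 7 were in the first run. LL0000007368 had 1362 and 1392 CPM in hom embryos, against 713 and 989 in het and 827 and 856 CPM in WT embryos. LL0000007367 had 1220.0 and 1125 CPM in hom embryos, against 407 and 805 in het and 716 and 711 CPM in WT embryos. LL0000007366 had 1049.7 and 1162 CPM in hom embryos, against 550.2 and 777 in het and 621 and 655 CPM in WT embryos. In each of these the hom libraries were apart from the rest, het replicate 1 was the lowest sibling and het replicate 2 the highest.

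LL0000007365 had 1118 and 1144 CPM in hom embryos, against 557 and 747 in het and 625 and 654 CPM in WT embryos. LL0000007361 had 1011 and 1038 CPM in hom embryos, against 493 and 681 in het and 606 and 639.6 CPM in WT embryos. LL0000007360 had 967 and 959.8 CPM in hom embryos, against 439 and 639.9 in het and 590.4 and 579.8 CPM in WT embryos. All 3 repeated the order of the ones above, with het replicate 1 under both WT libraries and het replicate 2 over both. LL0000007364 differed only in that het replicate 2 stayed under WT: it had 729 and 729 CPM in hom embryos, against 330.1 and 479 in het and 483 and 496 CPM in WT embryos.

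The other 3 of the 10 were in the second run. LL0000007395 had 939 and 909 CPM in hom embryos, against 605 and 737 in het and 414 and 419.6 CPM in WT embryos. LL0000007382 had 837 and 792 CPM in hom embryos, against 428 and 532 in het and 359.9 and 371 CPM in WT embryos. Both had hom above het and het above WT without overlap. LL0000007387, the only ID of the second run that was not raised, had 283 and 270 CPM in hom embryos, against 187 and 321 in het and 139 and 137 CPM in WT embryos, so that het replicate 2 was its highest library.

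The het pools were set beside WT across the raised IDs of each run. Both het libraries were above both WT libraries in 18 of 18 raised IDs of the second run, 1 of 11 of the first and 1 of 4 of the third, where 22.9% of all IDs at or above 1 CPM had this order. Hom, het and WT followed each other without overlap in the same counts, 18, 1 and 1, against 2.25% of all such IDs, though the hom position in this order was fixed by the rule. Het replicate 1 was the lowest of the 4 siblings in 9 of 11 raised IDs of the first run, 0 of 18 of the second and 2 of 4 of the third, against 35.7% of all such IDs. Het replicate 2 was the highest sibling in 30 of the 34 raised IDs, against 31.8% of all such IDs. The 2 het pools thus differed from each other in the same direction in most raised IDs. Het replicate 1 was the higher one in LL0000007359, at 4.44 against 4.05 CPM, and in LL0000007380. Relative to the WT mean, the summed CPM of het replicate 1 was 0.775 in the first run, 1.32 in the second and 1.01 in the third, and that of het replicate 2 was 1.13, 1.70 and 1.30.

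The test of het against WT at 2 dpf was fitted across 22383 IDs, and 86 of the 105 members passed its filter on low counts. By the quasi-likelihood test of edgeR (p-values adjusted by Benjamini-Hochberg), 16 members were higher in het embryos at an adjusted p under 0.05 and 0 were lower, where 0.259% of all IDs tested were called higher and 0.125% lower. Of these 16, 15 were in the second run and 1, LL0000007406, was in the third. The first run, with 12 IDs tested, held 0 calls, and the 43 tested IDs outside the block held 0 calls. An unadjusted p under 0.05 was found for 29 of the 86 members and for 2586 of all 22383 IDs tested. The median log2 fold change of het over WT was 0.62 over the second run, 0.00 over the tested IDs of the first, 0.06 over all members tested and 0.00 over all 22383 IDs. Whether the second run differed from the first was not tested. The 2 het pools differed in the same direction in most raised IDs, so the 16 calls are not independent of each other.

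The 3 smallest p-values were those of LL0000007384, LL0000007395 and LL0000007390. LL0000007384 had 86.9 and 109.7 CPM in het embryos, against 50.04 and 51.3 CPM in WT embryos, a log2 fold change of 0.96 (SE 0.08, adjusted p = 0.000157 by edgeR's quasi-likelihood test). LL0000007395, whose levels are given above, had a log2 fold change of 0.69 (SE 0.07, adjusted p = 0.000296 by the same edgeR test). LL0000007390 had 207 and 255 CPM in het embryos, against 142 and 138 CPM in WT embryos, a log2 fold change of 0.72 (SE 0.07, adjusted p = 0.000349 by the same edgeR test). The het libraries did not overlap the WT libraries in any of the 16 IDs called, an order that the call itself favours. Both het libraries were above both WT libraries in 22.9% of all IDs at or above 1 CPM. In hom embryos LL0000007384 stood at 126 and 125 CPM and LL0000007390 at 366 and 343 CPM, above both het libraries.

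The count of 16 depended on the WT pools, and some other settings also called members lower, as given below. Without WT replicate 1 or without WT replicate 2, which left a single WT pool, fewer members were called, all in the second run. Calls over all IDs tested fell too. The median log2 fold change over the second run was 0.62 with all libraries, 0.61 without WT replicate 1 and 0.64 without WT replicate 2. Without het replicate 2 the median log2 fold change was 0.48 over the second run, -0.32 over the first and -0.29 over the third. Without het replicate 1 it was 0.75, 0.21 and 0.51. Over all IDs tested it was -0.003 without het replicate 2 and -0.005 without het replicate 1. LL0000007384, LL0000007395 and LL0000007390 passed in all 12 alternatives tried, while LL0000007387 and LL0000007382 lost the call without either WT library. The log2 fold change of LL0000007387 was 0.88 with all libraries and 0.88 without either WT library, and that of LL0000007382 was 0.39 with all, 0.36 without WT replicate 1 and 0.42 without WT replicate 2. LL0000007387 also lost the call in DESeq2 (adjusted p = 0.0892).

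The counts for hom embryos at 2 dpf rest on the values that chose the neighbourhood, so they are a description and nothing is read from them. The same kind of fit called 29 of the 86 tested members higher in hom embryos than in siblings and 0 lower, where 0.398% of all IDs tested were called higher and 0.268% lower. Without hom replicate 1, which left a single hom pool, fewer members were called, as were fewer of all IDs tested. Against WT embryos alone, 33 were called higher and 0 lower, where 0.871% of all IDs tested were called higher and 0.746% lower, and the 33 included all 19 IDs of the second run. The single one outside the block, named after its values were seen, was LL0000007347, with 217 and 196 CPM in hom embryos, against 177 and 182 in het and 156 and 149 CPM in WT embryos. Its log2 fold change of hom over WT was 0.45 (SE 0.06, edgeR). It had hom, het and WT in order without overlap, as did 2.25% of all IDs at or above 1 CPM.

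At 5 dpf the sums of hom and WT larvae overlapped. The summed CPM of the members was 14219 and 15943 in hom larvae, against 17763 and 9960.3 in WT larvae, so both hom pools lay between the 2 WT pools. The ratio of hom to WT means was 1.09, and it was 1.51 without WT replicate 1 and 0.849 without WT replicate 2. Within the block the sums were 12069 and 13789 CPM in hom larvae, against 15559 and 7779 CPM in WT larvae, so the WT pools differed 2.00-fold. Outside the block they were 2149.9 and 2154 CPM in hom larvae, against 2204 and 2182 CPM in WT larvae. The difference in sums between the WT pools therefore lay mainly in the block, but differences outside it partly cancelled. WT replicates 1 and 2 summed to 1471 and 1345 CPM before the block and to 733 and 837 CPM after it. The genotype of these pools could not be checked in the counts, since no ID here is paired with *ebf3a*, and the labels name no clutch, so what separates the WT pools was not tested.

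**Figure D3:**
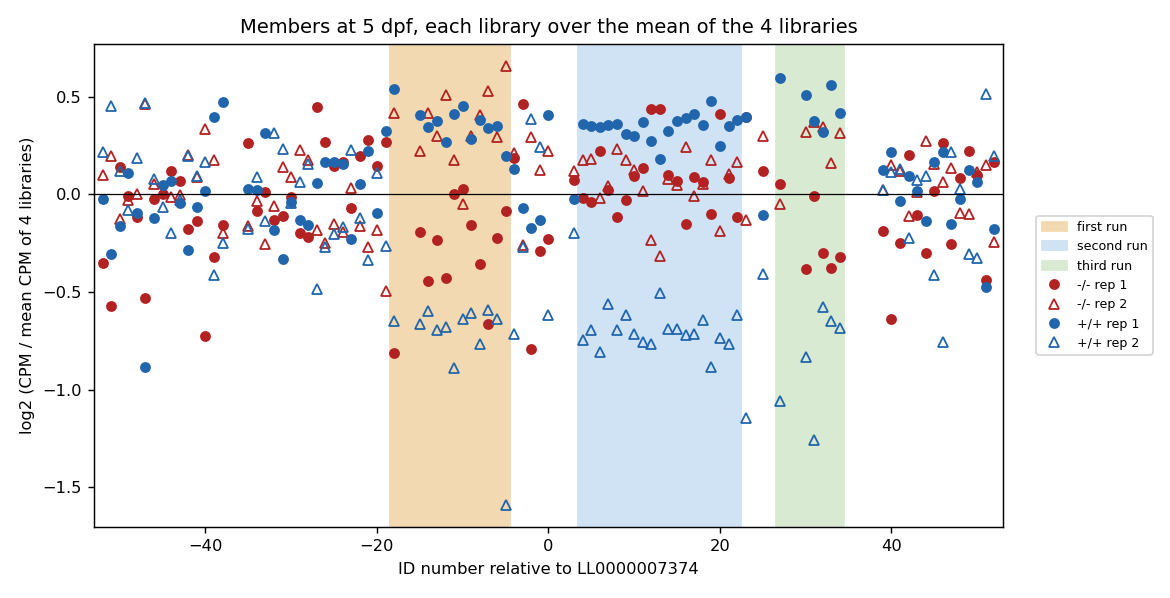
Each member with a mean of at least 1 CPM at 5 dpf, placed by its ID number relative to LL0000007374, with the log2 ratio of each library to the mean of the 4 libraries (hom red, WT blue; circles replicate 1, triangles replicate 2; shading marks the 3 runs). WT replicate 2 is the lowest library in 32 of the 34 raised IDs and WT replicate 1 the highest in 25, with both hom pools between them in 24.

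The first run summed to 3931 and 5933 CPM in hom larvae, against 6098 and 3012 CPM in WT larvae. The second run summed to 7236 and 6478 CPM in hom larvae, against 7999.7 and 4039.5 CPM in WT larvae, and the third to 732 and 1139.6 CPM in hom larvae, against 1209.9 and 570.1 CPM in WT larvae. The 2 hom pools thus differed 1.51-fold in the first run and were closer in the second, where hom replicate 1 was the higher one. Over the 34 raised IDs, WT replicate 1 was above WT replicate 2 in 34, against 47.2% of all 20473 IDs at or above 1 CPM at this age. WT replicate 2 was the lowest of the 4 libraries in 32, against 30.6% of all such IDs. WT replicate 1 was the highest of the 4 in 25, against 20.6% of all such IDs. Both hom libraries lay between the WT libraries in 24, against 21.9% of all such IDs. Both hom libraries were above both WT libraries in 0 of the 34, against 11.2% of all such IDs, and below both in 0, against 8.59%.

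The fit of hom against WT larvae tested 23654 IDs, among them 101 members, and called none: 0 members and 0% of all IDs were higher or lower at an adjusted p under 0.05 by edgeR's quasi-likelihood test. DESeq2 also called 0 members. In edgeR 1 member, LL0000007357, had an unadjusted p under 0.05, as did 278 of all 23654 IDs tested. LL0000007357 had 0.339 CPM or less in 3 of the 4 libraries. The median log2 fold change was 0.06 over the members tested and -0.01 over all IDs. Standard errors of the log2 fold change ran between 0.31 and 0.42 in the second run, against 0.06 to 0.15 for the het to WT contrast of the same IDs at 2 dpf. LL0000007374 illustrated the spread, with 133 and 181 CPM in hom larvae, against 206 and 101 CPM in WT larvae and a log2 fold change of 0.01 (SE 0.36, edgeR).

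The highest ratios of hom to WT at 5 dpf belonged to LL0000007369, with 1.73 and 2.90 CPM in hom larvae, against 2.11 and 0.610 CPM in WT larvae, to LL0000007399, with 1.95 and 2.21 in hom, against 1.67 and 1.35 CPM in WT larvae, and to LL0000007370, with 2.36 and 2.41 in hom, against 2.27 and 1.26 CPM in WT larvae. These ratios were 1.70, 1.38 and 1.35. The libraries overlapped in LL0000007369 and did not in the other 2. These IDs were chosen for their high ratios, and 11.2% of all IDs at or above 1 CPM at this age had both hom libraries above both WT libraries. The lowest ratios were those of LL0000007414 at 0.781, LL0000007336 at 0.793 and LL0000007372 at 0.820. LL0000007414 had 1.75 and 3.04 CPM in hom larvae, against 3.18 and 2.96 CPM in WT larvae. LL0000007336 had 20.5 and 19.9 CPM in hom larvae, against 31.7 and 19.3 CPM in WT larvae, and LL0000007372 had 14.1 and 30.0 in hom, against 21.7 and 32.0 CPM in WT larvae. The genotypes overlapped in all 3.

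Age was compared in WT pools, where age, the dissected part and the pool size changed together and cannot be told apart. The members summed to 17763 and 9960.3 CPM in WT larvae at 5 dpf, against 9967 and 10110.1 CPM in WT embryos at 2 dpf. The ratio of means, 1.38, was 0.992 without 5 dpf WT replicate 1. It was 1.23 with library sizes scaled by TMM, the normalization of the edgeR tests, which the sums here do not use. By edgeR's quasi-likelihood test, 47 of 99 tested members were higher at 5 dpf, where 35.5% of all 24140 IDs tested were, and 14 were lower, where 31.1% were. The median log2 fold change was 0.63 over the members tested and 0.12 over all IDs.

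Calls by run are a description, to be set beside 35.5% higher and 31.1% lower over all IDs tested. In the first run, with 13 IDs tested, 1 was called higher at 5 dpf and 1 lower. In the second, with 19 tested, 10 were called higher and 0 lower. Between runs 8 of 11 tested were higher and 1 lower, and in the third run 3 of 7 were higher and 1 lower. Outside the block 25 of 49 were higher and 11 lower. Whether the runs differed was not tested. Fold changes inside the runs turned on the WT library used at 5 dpf. The median log2 fold change of the first run was -0.26 with all libraries, -0.81 without WT replicate 1 and 0.15 without WT replicate 2. In the second run it was 0.95, 0.38 and 1.36, and over all IDs tested 0.12, 0.09 and 0.06. The sign turned in at least 14 members, 5 in the first run, 7 in the second and 2 in the third. Among them were LL0000007368, LL0000007382 and LL0000007395, and no direction with age is given for these members.

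Single members changed with age by far more than the WT pools differed. LL0000007374 had 206 and 101 CPM in WT larvae at 5 dpf, against 0.786 and 1.28 CPM in WT embryos at 2 dpf, a log2 fold change of 7.003 (SE 0.46, adjusted p = 5.55e-05 by edgeR's quasi-likelihood test). LL0000007380 had 247 and 111 CPM at 5 dpf, against 8.99 and 9.18 CPM at 2 dpf, a log2 fold change of 4.10 (SE 0.39, adjusted p = 0.000205 by the same edgeR test). LL0000007387 had 1404 and 873 CPM at 5 dpf, against 139 and 137 CPM at 2 dpf, a log2 fold change of 2.85 (SE 0.24, adjusted p = 0.000116 by the same edgeR test). The 5 dpf libraries were above the 2 dpf libraries in each of these, and each call held without any one library. In hom pools LL0000007374 likewise stood at 133 and 181 CPM at 5 dpf, against 4.09 and 2.99 CPM at 2 dpf, and LL0000007387 at 1681 and 996 CPM at 5 dpf, against 283 and 270 CPM at 2 dpf.

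**Figure D4:**
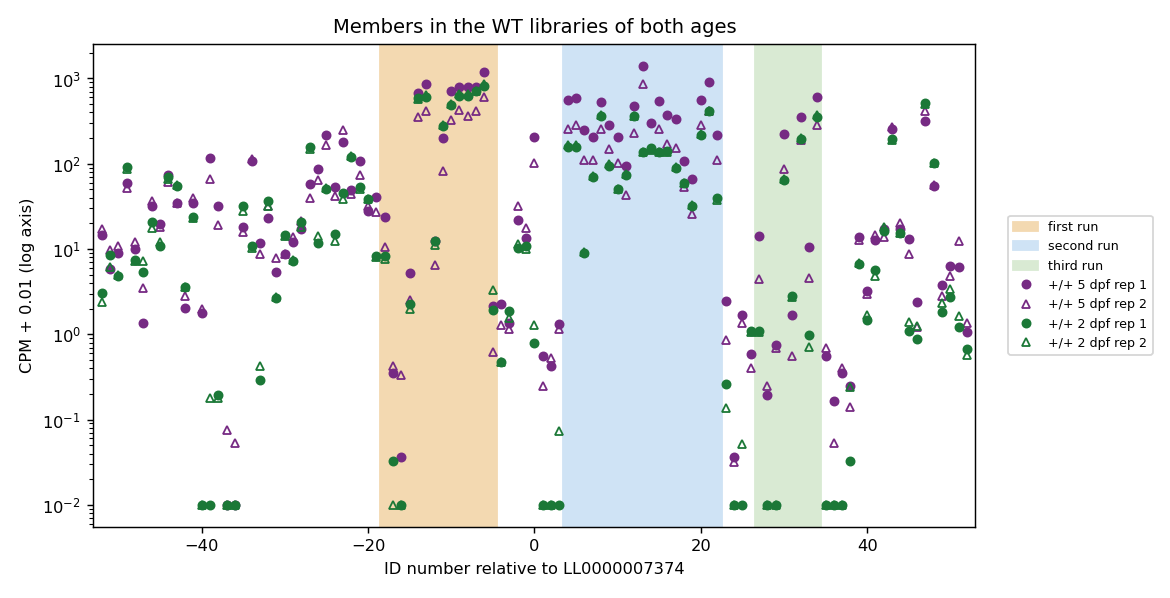
CPM of all 105 members in the WT libraries of 5 dpf (purple) and 2 dpf (green), placed by ID number relative to LL0000007374, on a log axis after adding 0.01 CPM so that zeros are drawn (circles replicate 1, triangles replicate 2; shading marks the 3 runs). The 2 WT libraries of 2 dpf nearly coincide in the runs while those of 5 dpf stand apart, and LL0000007374 at position 0 lies near 1 CPM at 2 dpf and at 206 and 101 CPM at 5 dpf.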

How the data were processed

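Reads were mapped by the authors to GRCz11 with STAR (2.7.3a per the submitters' processing notes, where the study's methods give another version). Each library's deposited file holds raw, not normalized, counts for the gene IDs of the Lawson Lab annotation. The strand setting of the counting is not given in the sources used here, so reads of overlapping IDs on opposite strands cannot be told apart. The authors normalized the counts in DESeq2 for their own analysis, whose values are not used here.

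From these counts, CPM was computed by library sum. Tests used edgeR 4.0.16 in R 4.3.3 (TMM, filterByExpr, quasi-likelihood test, Benjamini-Hochberg adjustment over all IDs tested, threshold 0.05). They were also run on simulated counts with the same low spread for all IDs. Only well-counted IDs were changed there, by more than the changes called for het over WT. That setting does not cover the spread of the 5 dpf pools or changes of the size seen here. The SE is not an output of this test. It was derived as the absolute log2 fold change divided by the square root of the test's F value. The 3 genotypes of 2 dpf shared 1 fit, hom against pooled siblings had a second, 5 dpf was fitted alone, and ages were compared in the 4 WT libraries. Alternatives were DESeq2 1.42.0, its size factors, other filters, other samples in the fit, a replicate block, each library left out, and other block rules. Groups came from the titles. Replicates differed beyond counting noise in every group, with a chi-square per degree of freedom of 7.50 to 56.5, and no library was counted double.

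Members, lists and tests were chosen with earlier results of these data known. Members named with values were LL0000007374, the 10 with the highest mean CPM, the 3 highest and lowest ratios of hom to siblings at 2 dpf and of hom to WT at 5 dpf (mean of at least 1 CPM), the block's ends with the 2 IDs outside each, and the 3 smallest p-values among calls. Others are said to be chosen after their values were seen, or mark a threshold or count.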

Additional observations from a re-analysis of the deposited data

Results flagged for a closer look

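Among the 4 sibling libraries of 2 dpf (2 het and 2 WT), 39 sums and named members were checked for a library whose gap to its nearest neighbour took a share of the whole range above Dixon's limit for 4 values. Chance passes this limit in about 1 in 20 groups, and 8 of the 39 passed it, several of them overlapping sums. In all 8 the library apart was a het pool. Het replicate 2 was apart on the high side in the summed CPM of all members (0.872), of the block (0.904) and of the third run (0.864). Het replicate 1 was apart on the low side in LL0000007364 (0.897), at 330.1 CPM against 479 in the other het library and 483 and 496 CPM in WT, and in LL0000007332 (0.831) and LL0000007355 (0.915). It was apart on the high side in LL0000007370 (0.962), with 1.27 CPM against 0.430 in the other het library and 0.462 and 0.460 CPM in WT. The value for LL0000007409 (1.00) rests on 1 count in het replicate 2. Differences between the runs were not tested.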

How the results depend on the processing

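The 16 members called between het and WT at 2 dpf became 25 with no filter on low counts, 3 without WT replicate 1 and 9 without WT replicate 2, with a range of 3 to 22 over the 6 single libraries left out. DESeq2 called 20, of which 14 were among the 16. Calls of hom against siblings, 29, were 14 without hom replicate 1 and 14 to 33 over the libraries left out. The block of 53 IDs became 7 with a ratio of at least 2 and 1 when gaps of at most 2 IDs were allowed. Calls made by edgeR in place of the CPM rule gave 41 IDs, to LL0000007396. For hom against WT, DESeq2 called 31 members and 512 of 18477 IDs at 2 dpf, and 0 members and 2 of 23654 IDs at 5 dpf. Between the ages it called 62 members and 15471 of 24140 IDs. The ratios of summed CPM with a library left out were 1.56 to 1.72 for hom over siblings, 0.968 to 1.27 for het over WT, 0.849 to 1.51 for hom over WT at 5 dpf and 0.992 to 1.77 between the ages, so the last 3 crossed 1. Between the ages, the log2 fold change of at least 14 members turned its sign without one or the other 5 dpf WT library. With 2 pools per group, a lone library left in a group was assumed to vary like the others.

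With the replicate number as a block, 16 members and 51 of all 22383 IDs tested were called for het against WT. For hom against siblings 23 members and 102 of 22383 IDs were called, and between the ages 69 members and 16236 of 24140 IDs. For hom against WT at 5 dpf 0 members and 10 of 23654 IDs were called. In that edgeR fit 1681 IDs had an unadjusted p under 0.05, against 278 without the block. Samples share only a number, since the labels name no shared clutch or day. Deviations of same-numbered samples correlated at -0.02 to 0.00 across all IDs at 2 dpf and at 0.45 at 5 dpf. Across the members they correlated at -0.25 to 0.06 at 2 dpf and at 0.08 at 5 dpf.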

Other observations

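At 2 dpf, 10 members had 0 counts in all 6 libraries, 5 of them inside the block, and 8 of these 10 had counts in all 4 libraries of 5 dpf. Their highest level at 5 dpf was 2.21 CPM, in LL0000007334, chosen after its values were seen, with 1.06 and 2.21 CPM in hom larvae and 1.77 and 1.96 CPM in WT larvae. LL0000007336, outside the block, had 0.185 CPM or less in every library of 2 dpf and 19.3 to 31.7 CPM at 5 dpf. No member was at 0 in all 10 libraries.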
